A study of Mus musculus with 32 samples.

Results

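Formalin-fixed, paraffin-embedded (FFPE) mouse urothelium was compared with the fresh frozen (FF) part of the same tissue, on 2 arrays of each, which are 4 of the 32 arrays of the series. The arrays were chosen by their labels and not by their values, and all 21237 probe sets on them were used. The FFPE arrays carried RNA amplified from 50 ng with the SensationPlus kit, and the FF arrays RNA amplified from 100 ng with GeneChip WT Plus, the combination that the series takes as its reference. Per the labels, normal urothelium was taken from 9 mice and each piece was split, 1 part going into liquid nitrogen and 1 part into buffered formalin for 24 hours before paraffin embedding. RNA of the embedded part came from 10 sections of 5 µm with RNeasy FFPE, and RNA of the frozen part was prepared with RNeasy mini. Fixation, extraction, kit and input therefore changed together and cannot be told apart here. The sources used here give neither strain, sex nor age of the mice, nor whether their RNA was pooled.

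The same arrays were set beside other arrays that share none of them. One set was BC57, a cultured mouse bladder cancer line whose pellet was split and treated the same way, with SensationPlus FFPE 50 ng and WT Plus FF 100 ng (2 arrays each). The other was urothelium amplified with GeneChip WT Pico, a kit for very small amounts, from FFPE and FF RNA at 2 ng and at 0.5 ng (3 arrays each), where kit and input are held equal across fixation. The arrays of a group are described as repeats of a sample, so all errors and p-values measure the spread between these arrays, which may be technical.

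Urothelium is the layered epithelium that lines the bladder, with basal, intermediate and umbrella cells, and it forms the barrier to urine. Formalin adds groups to RNA bases and links RNA to protein, and RNA recovered from paraffin is usually broken into short fragments. Kits for such RNA start amplification along the whole fragment and not at the poly(A) tail alone, and kits differ in how they prime, amplify and label.

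The probe sets are named by Ensembl mouse gene identifiers, and 0 of these could be paired with a gene symbol through the reference table used here. Gene groups and cell type markers are therefore not reported, the tissue label was not checked against its markers, no sequence could be assigned, and 4 probe sets are described by identifier. In these bulk samples, fewer cells of a type and less RNA per cell cannot be told apart. Values are log2 RMA levels, and changes are log2 differences, FFPE minus FF. The brightness of a probe set also depends on its probes, so it is used to sort probe sets and not to compare genes.

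The FFPE arrays had a narrower range of levels than the FF arrays. The standard deviation over probe sets was 1.75 and 1.73 on the FFPE arrays, against 1.95 and 1.97 on the FF arrays. The medians were 5.55 and 5.52 in FFPE, against 5.44 and 5.42 in FF. In both measures the groups did not overlap, although an exact permutation test of 2 against 2 arrays cannot give a 2-sided p below 0.333. The narrowing was at both ends of the scale. The 5th percentile was 2.60 on both FFPE arrays and 2.37 and 2.31 on the FF arrays, while the 95th percentile was 8.24 and 8.14 in FFPE and 8.56 in both FF arrays. The interquartile range was 2.48 and 2.45 in FFPE and 2.94 and 2.99 in FF.

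On these measures the SensationPlus arrays lay between the frozen arrays and the WT Pico FFPE arrays of the same tissue. The interquartile range of the 6 urothelium WT Pico FFPE arrays ran from 1.79 to 2.01 and their medians from 5.73 to 5.8. Replicates differed more at FFPE 50 ng than at FF 100 ng. The SD between them, as a root mean square over probe sets, was 0.15 at FFPE 50 ng and 0.11 at FF 100 ng. With WT Pico it was 0.21 in FFPE and 0.12 in FF at 2 ng, and 0.25 and 0.17 at 0.5 ng. Frozen RNA at 0.5 ng thus had a larger SD than FFPE RNA at 50 ng.

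**Figure D1:**
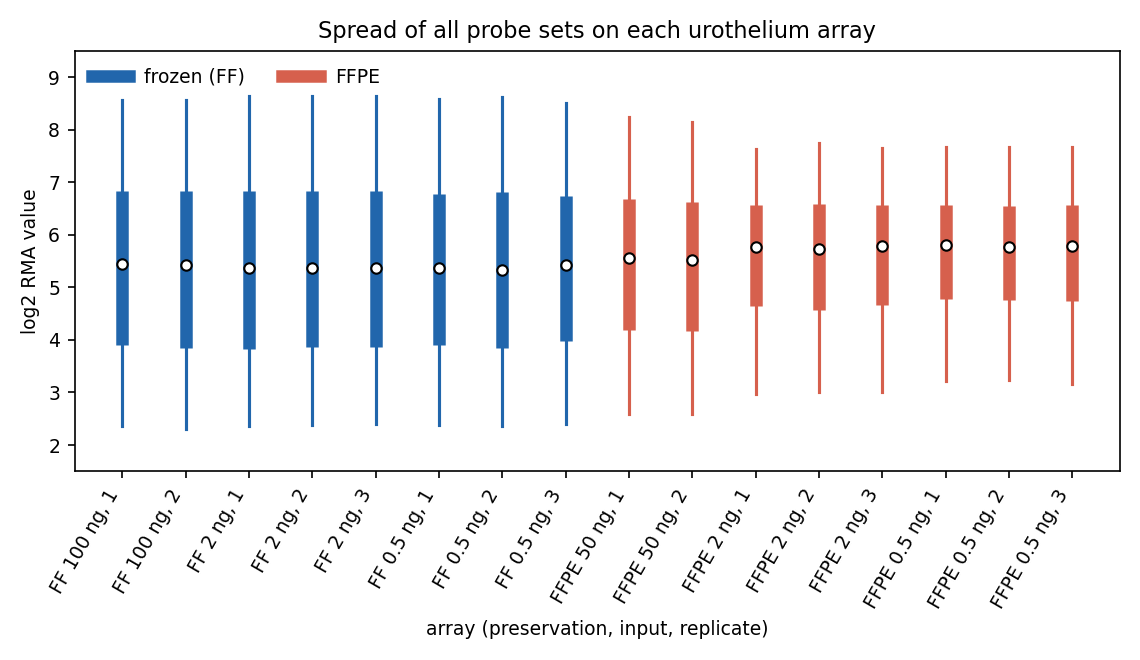
Log2 RMA values of all probe sets on each of the 16 urothelium arrays, with circles at the median, thick bars from the 25th to the 75th and thin lines from the 5th to the 95th percentile. The 2 FFPE 50 ng arrays have medians of 5.55 and 5.52 and a range narrower than that of the frozen arrays and wider than that of the WT Pico FFPE arrays.

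Across probe sets, each FFPE array correlated with each FF array at r = 0.953 to 0.957 (Spearman's rho 0.955 to 0.961), while the replicates correlated at 0.992 in FFPE and 0.997 in FF. Probe sets are the points of these correlations and are no independent replicates. The median change of all probe sets was 0.14, and it was between 0.09 and 0.16 in the 4 differences of 1 FFPE minus 1 FF array. Most probe sets kept their level within a small factor: 76.6% changed by under 1.5-fold and 93.0% by under 2-fold.

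Differences were tested with limma, and a probe set was called where the Benjamini-Hochberg adjusted p was under 0.05 and the change, up or down, reached 1 on the log2 scale, or 2-fold. In urothelium 1486 probe sets were called, which is 7.0% of those tested, with 549 higher (2.59%) and 937 lower (4.41%) in FFPE. The fold threshold set the number: adjusted p alone passed 12708 probe sets (59.8%; 34.8% higher and 5312 lower), while only 5 probe sets past 2-fold failed the adjusted p. The FFPE and FF arrays did not overlap in 17560 of all 21237 probe sets, so that the same held for all 1486 calls says little about them. Each of the 4 array differences was past 2-fold in 1032 of all probe sets, 345 of them called higher and 687 called lower. Leaving out single arrays gave between 1416 and 1647 calls.

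Most called changes were small. Among the higher probe sets 473 stayed under 4-fold, 53 lay between 4-fold and 8-fold, and 23 were past 8-fold. Among the lower ones these classes held 870, 56 and 11. The largest rise was 6.15 and the largest fall -4.34. The split of directions went with the scaling of the arrays: 36.9% of the calls were higher in FFPE as deposited, 25.1% of 1670 after each array was centred on its median, and 48.5% of 1053 after quantile normalization. Centring called 7.86% of all probe sets, 1.97% higher and 5.89% lower, and quantile normalization 4.96%, 2.41% higher and 2.55% lower.

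The sign of the change followed the brightness of the probe set. When probe sets were sorted into 5 equal classes by the mean of the 4 arrays, the median change was 0.27, 0.30 and 0.16 in the 3 dimmer classes and -0.12 and -0.33 in the 2 brighter ones. Over the 4 single-array differences, the dimmest class ranged from 0.24 to 0.29 and the brightest from -0.37 to -0.29, so these shifts were larger than the spread between replicates. From the dimmest to the brightest class, 66, 160, 134, 83 and 106 probe sets were called higher, and 3, 27, 86, 247 and 574 were called lower. The share called was 1.62% in the dimmest and 16.0% in the brightest class. These classes were sorted by the same arrays that give the change. Sorting by the FF 2 ng level, added after seeing the data, uses other arrays. It gave 137, 162, 121, 61 and 68 higher and 0, 12, 76, 224 and 625 lower calls, dimmest class first.

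This pattern depended on the scaling and on how the classes were sorted. Quantile normalization forces the same distribution on every array. In the classes sorted by the 4 arrays, the brightest then held 226 lower and 213 higher calls, and the dimmest 11 lower and 17 higher. The median change of each of these classes was within 0.05 of 0. Sorted by the FF 2 ng level, the dimmest class held 60 higher and 7 lower calls, and the brightest 145 higher and 273 lower. The median changes of those classes ran from -0.096 to 0.068. The spread of changes among probe sets also grew with brightness. As deposited and sorted by the 4 arrays, its interquartile range was 0.26 in the dimmest and 0.81 in the brightest class. Replicates ran the other way: their root mean square SD fell from 0.18 in the dimmest to 0.13 in the brightest class on FFPE arrays, and from 0.14 to 0.09 on FF arrays.

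**Figure D2:**
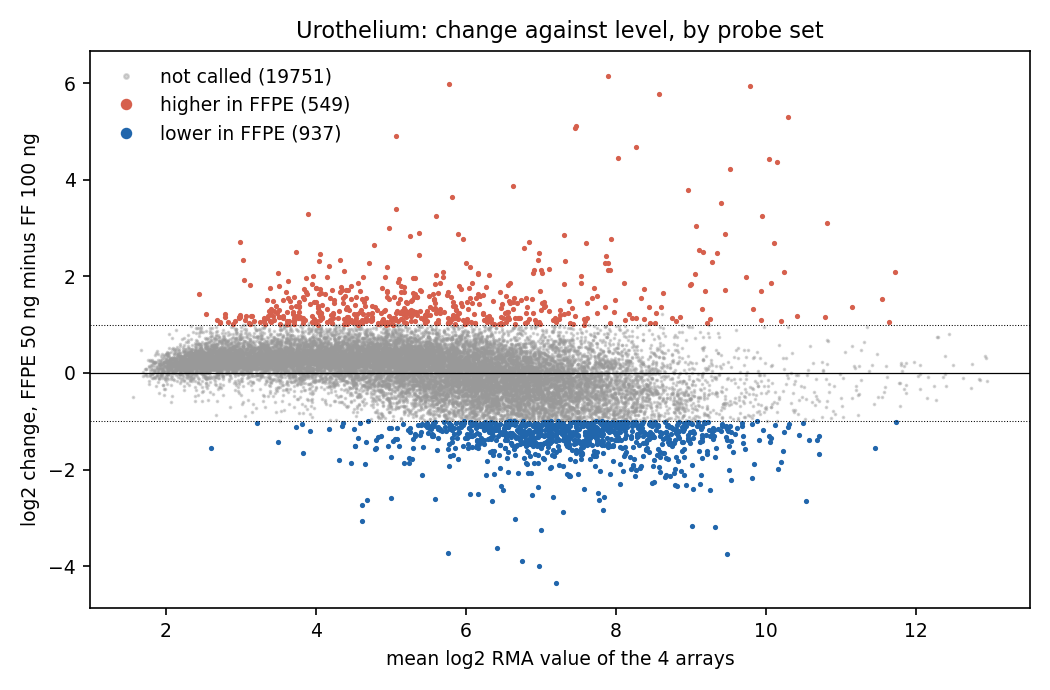
Each point is a probe set, with the mean log2 RMA value of the 4 urothelium arrays on the x axis and the log2 change, FFPE 50 ng minus FF 100 ng, on the y axis; dotted lines mark 2-fold. The 549 higher calls lie at all levels, and the 937 lower calls lie mainly among the brighter probe sets.

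Beside the other changes with fixation, the slope with urothelium brightness was shallower than with WT Pico and steeper than in BC57. In the same 5 classes, sorted by arrays that none of these changes use, the median change of urothelium at WT Pico 2 ng was 0.71 in the dimmest and -0.79 in the brightest class. At WT Pico 0.5 ng it was 0.89 and -0.78. In BC57 at FFPE 50 ng against FF 100 ng it was 0.17 and -0.09. The BC57 changes were sorted by urothelium levels and not by BC57 levels, so this slope is not a like measure. The slope over BC57 brightness was not computed. The slopes themselves were not tested against each other, and the tests of single probe sets follow.

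**Figure D3:**
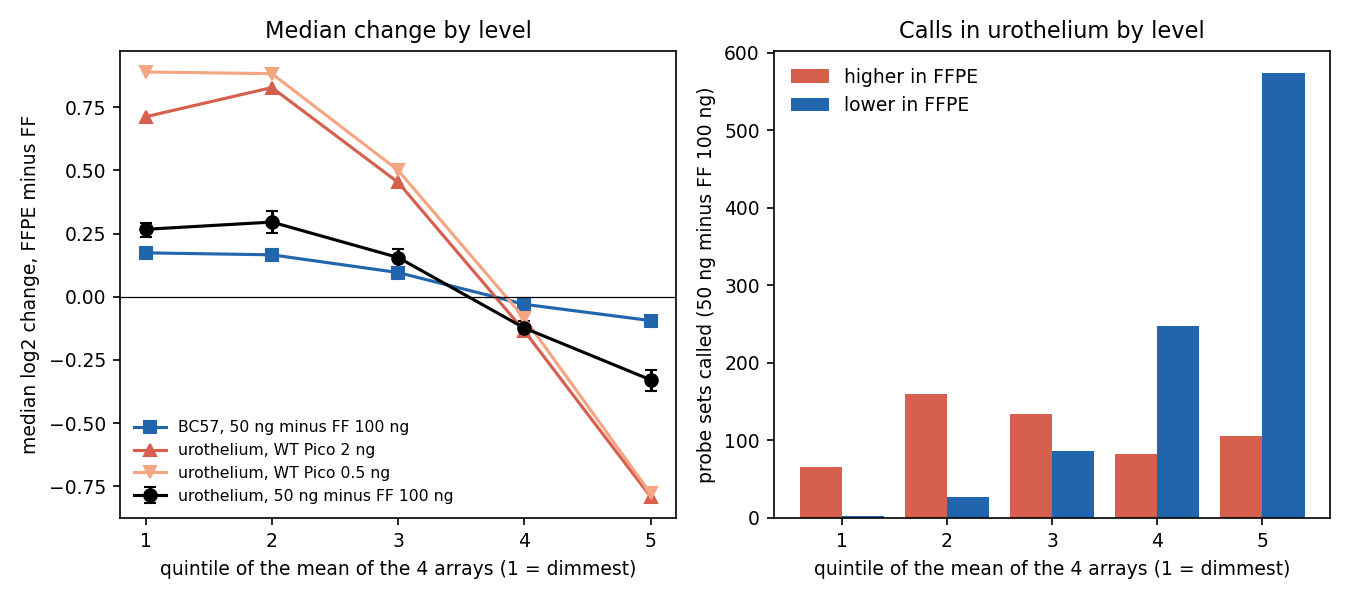
Left, the median log2 change, FFPE minus FF, in 5 classes of probe sets sorted by the mean of the 4 urothelium arrays, with bars on the black points from the lowest to the highest of the 4 single-array differences. Right, the number of probe sets called in urothelium at 50 ng against FF 100 ng in the same classes, where the brightest class holds 574 lower and 106 higher calls.

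ENSMUSG00000070178 had the largest rise. Its level was 5.0 and 4.63 on the FF 100 ng arrays and 10.77 and 11.15 on the FFPE 50 ng arrays. The groups lay far apart, and the change was 6.15 ± 0.21 (SE, n = 2 each, limma adjusted p = 3.3e-06), a 70.8-fold rise. With WT Pico the same tissue gave 2.94 ± 0.13 in FF and 3.62 ± 0.30 in FFPE at 2 ng (SD, n = 3 each), and 2.92 ± 0.12 and 3.71 ± 0.45 at 0.5 ng. The high level was thus seen in FFPE RNA with SensationPlus and not in FFPE RNA with WT Pico. BC57 showed the same order, with 10.87 ± 0.42 at FFPE 50 ng and 6.21 ± 0.07 at FF 100 ng (SD, n = 2 each).

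ENSMUSG00000089929 rose from 2.59 and 2.97 on the FF arrays to 8.27 and 9.25 on the FFPE arrays. The change was 5.98 ± 0.29 (SE, n = 2 each, limma adjusted p = 8.84e-06). The FF levels lie in the range of levels of the dimmest class, where a level may be background, so the size of the rise depends on it. Its WT Pico levels were low too, at 2.88 ± 0.41 in FF and 3.03 ± 0.44 in FFPE at 2 ng (SD, n = 3 each). At 0.5 ng it was 1.85 ± 0.20 in FF and 2.94 ± 0.73 in FFPE, a change of 1.08 ± 0.47 that was called higher (SE, limma adjusted p = 0.0475). In BC57 it changed by 5.93 ± 0.29, and the difference between the tissues was 0.05 ± 0.41 (SE, limma adjusted p = 0.951).

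ENSMUSG00000076891 had the largest fall. Its level was 9.43 and 9.31 in FF and 4.68 and 5.39 in FFPE, a change of -4.34 ± 0.22 (SE, n = 2 each, limma adjusted p = 1.05e-05). WT Pico gave the opposite order: 7.44 ± 0.19 in FF and 10.31 ± 0.06 in FFPE at 2 ng, and 7.54 ± 0.16 and 10.33 ± 0.06 at 0.5 ng (SD, n = 3 each). The WT Pico change at 2 ng was 2.87 ± 0.11 (SE, limma adjusted p = 7.95e-10), and at 0.5 ng it was 2.79 ± 0.13. In BC57 the 50 ng change was -4.34 ± 0.22, with a difference from urothelium of 0.00013 ± 0.31 (SE, limma adjusted p = 1.0).

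ENSMUSG00000106387 fell from 8.99 and 8.94 in FF to 3.94 and 5.99 in FFPE. The change was -4.0 ± 0.69 (SE, n = 2 each, limma adjusted p = 0.00206). The FFPE replicates were far apart, and the change was -2.97 without the first and -5.02 without the second, both called. With WT Pico it too went the other way, from 6.24 ± 0.12 in FF to 9.60 ± 0.32 in FFPE at 2 ng and from 6.4 ± 0.36 to 9.77 ± 0.15 at 0.5 ng (SD, n = 3 each). In BC57 the 50 ng change was -4.45 ± 0.69 (SE, n = 2 each, limma adjusted p = 0.0018).

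**Figure D4:**
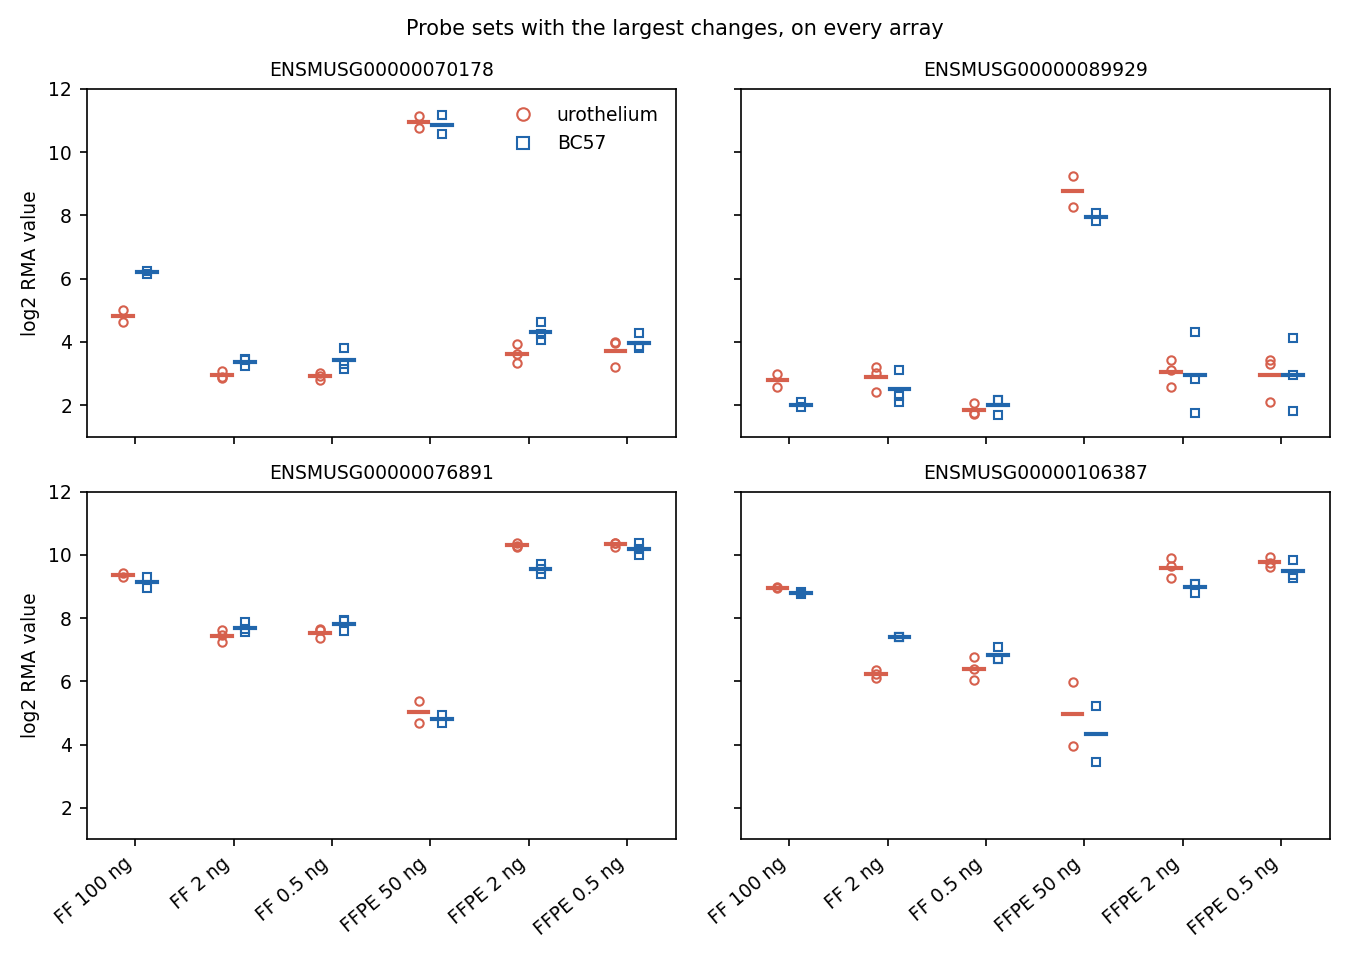
Log2 RMA values of 4 probe sets on every array of the 12 groups, circles for urothelium and squares for BC57, with horizontal lines at group means. The upper 2 probe sets are highest in the FFPE 50 ng groups. The lower 2 are lowest at FFPE 50 ng, and their group means are highest in the WT Pico FFPE groups in both tissues.

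The changes past 8-fold followed the pattern of these 4 in BC57, in arrays that share none with urothelium. All 23 probe sets that rose past 8-fold in urothelium were called higher in BC57, against 2.24% of all probe sets, and their BC57 changes ran from 1.02 to 6.34 with a median of 4.30. All 11 that fell past 8-fold were called lower in BC57, against 2.47% of all, with a median of -3.12. The kits and inputs were those of urothelium, so this comparison keeps every factor that changed with fixation.

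In WT Pico arrays of urothelium the same 23 rises were smaller. Their median change was 4.36 at 50 ng against FF 100 ng and 1.17 at WT Pico 2 ng, and 13 of them were called higher at 2 ng, where 12.4% of all probe sets were. Their median level was 5.81 at FF 100 ng and 10.61 at FFPE 50 ng, but 5.94 and 5.79 at FFPE 2 ng and 0.5 ng. In 19 of the 23 the FFPE 2 ng level was nearer to FF 100 ng than to FFPE 50 ng, against 4981 of all 21237 probe sets. The 23 were chosen on the gap between FFPE 50 ng and FF 100 ng, so this comparison is a description. The difference between the kits was called at 20 of the 23, but the 23 were chosen on 1 of the changes it compares, and nothing is read from that count.

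The 11 falls past 8-fold held both directions with WT Pico. At 2 ng 4 of them were called higher, with changes of 2.26 to 4.25, and 6 were called lower, against 12.4% and 10.3% of all probe sets. At 0.5 ng, where 18.0% of all probe sets were called higher and 10.2% lower, the counts were again 4 and 6. The 4 with a positive change had a median level of 9.17 at FF 100 ng, which was 5.0 in FFPE with SensationPlus and 10.23 in FFPE with WT Pico at 2 ng. The other 7 had 8.63, 5.14 and 5.73. These groups were split by the sign of the WT Pico change, so the levels describe the split.

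The falls as a whole, large and small, were also set beside WT Pico. Of the 937 lower probe sets, 578 (61.7%) were called lower at WT Pico 2 ng, where 10.3% of all probe sets were, and 26 were called higher. Their median change was -1.27 at 50 ng against FF 100 ng, -1.22 at WT Pico 2 ng and -1.23 at 0.5 ng. Their median level was 8.04 at FF 100 ng and 7.65 at FF 2 ng, and it was 6.66, 6.43 and 6.39 in FFPE at 50 ng, 2 ng and 0.5 ng. In 851 of the 937 (90.8%) the FFPE 2 ng level was nearer to FFPE 50 ng than to FF 100 ng, against 76.5% of all probe sets. The 937 were chosen on the gap between FFPE 50 ng and FF 100 ng, so this share is a description. Since bright probe sets fell in general with both kits, their brightness moves with the agreement between the kits, and its part was not tested.

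Of the 549 higher probe sets, 252 (45.9%) were called higher at WT Pico 2 ng, against 12.4% of all, and 13 were called lower. Their median change was 1.28 at 50 ng against FF 100 ng and 0.94 at WT Pico 2 ng, while the median of all probe sets was 0.14 and 0.39. The WT Pico change at 2 ng was under 1.5-fold in 125 of them (22.8%), against 41.3% of all probe sets. The median level was 4.57 at FF 100 ng and 4.62 at FF 2 ng, and 6.04, 5.70 and 5.72 in FFPE at 50 ng, 2 ng and 0.5 ng. The FFPE 2 ng level was nearer to FFPE 50 ng in 359 of the 549 (65.4%), below the 76.5% of all probe sets. The 549 too were chosen on the gap between FFPE 50 ng and FF 100 ng, so this share is a description.

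Over all probe sets, the change at 50 ng against FF 100 ng correlated with that at WT Pico 2 ng at r = 0.624 (rho 0.648) and at 0.5 ng, where 28.3% of all probe sets were called, at r = 0.609. After quantile normalization these were 0.489 and 0.459. The points share the RNA sources and the slope with brightness, so r is a description. In all, 830 calls were shared with 2 ng in the same direction, 55.9% of the calls at 50 ng and 17.2% of the 4814 at 2 ng, and 39 were called in opposite directions.

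The difference between the 2 changes was tested directly, and 2024 probe sets were called (limma, 9.53% of those tested). Of these, 935 changed in the same direction at both but less at 50 ng, 124 changed in the same direction and more at 50 ng, and 965 had opposite signs. Most were called for fixation with WT Pico: 1318 were called for fixation at WT Pico 2 ng alone, 174 at 50 ng alone, 131 at both and 401 at neither. The 1103 (5.19%) with a more positive change at 50 ng had a median change of -0.01 there and of -1.42 at WT Pico. The 921 (4.34%) with a more negative change had -0.10 and 1.2. The split went with the scaling: 54.5% were more positive at 50 ng as deposited, 84.1% of 2372 after centring and 52.7% of 1540 after quantile normalization.

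Of the 39 probe sets called in opposite directions, the 13 that were higher at 50 ng had median levels of 7.70 at FF 100 ng and 8.83 at FFPE 50 ng, against 9.35 at FF 2 ng and 7.85 at FFPE 2 ng. The 26 that were lower at 50 ng had 7.62 and 5.87, against 6.90 and 9.06. The 39 were chosen by the signs of these changes, so the order of these levels was fixed by the choice. In BC57 at 50 ng, 10 of the 13 were called higher and 17 of the 26 lower, against 2.24% and 2.47% of all probe sets.

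**Figure D5:**
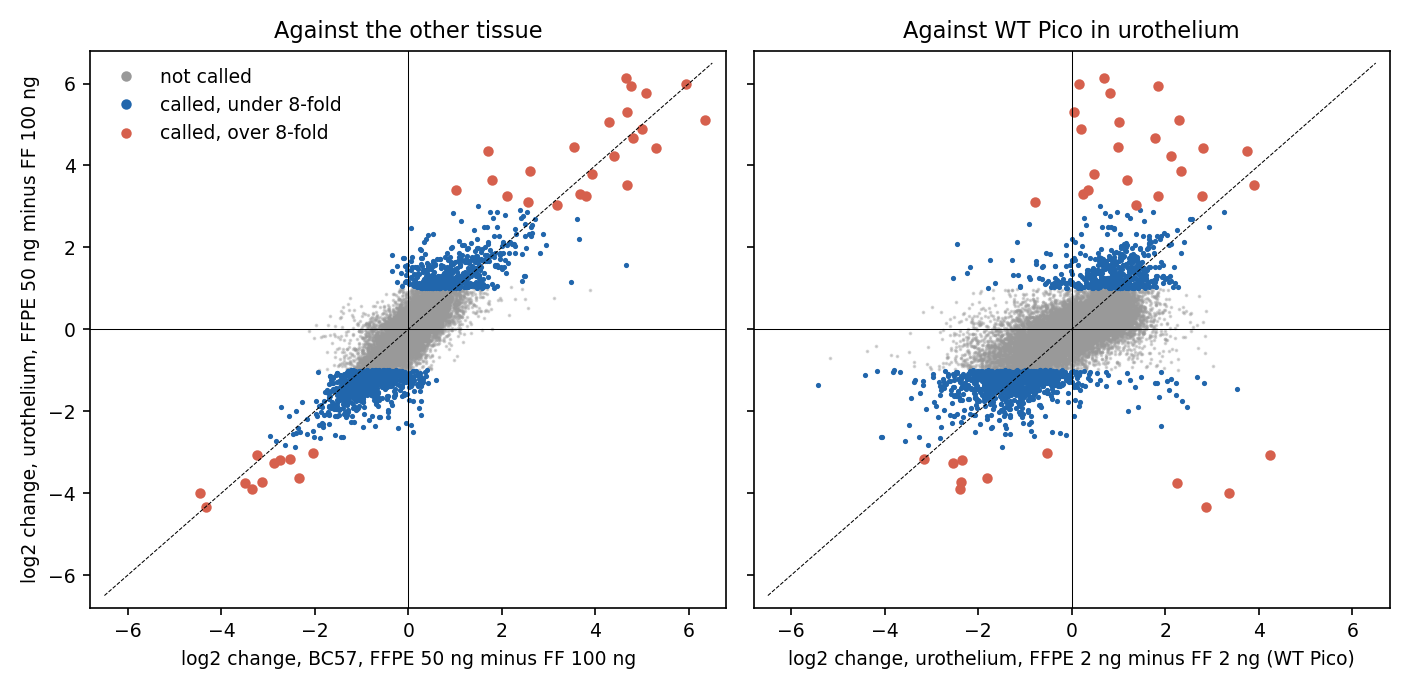
Each point is a probe set, with the log2 change in urothelium, FFPE 50 ng minus FF 100 ng, on the y axis and, on the x axis, the change in BC57 under the same conditions (left) or in urothelium at WT Pico 2 ng (right); the dashed line marks equal changes. The 34 probe sets past 8-fold lie along the line on the left, with r = 0.793 over all probe sets, and on the right most lie nearer to 0 on the x axis and 4 of the falls have a positive WT Pico change.

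Against BC57 the urothelium change held a small set of differences. The changes correlated at r = 0.793 (rho 0.742), and at 0.785 after quantile normalization. BC57 had 1000 calls (4.71%), 603 of them shared with urothelium in the same direction, which is 60.3% of the BC57 calls and 40.6% of the urothelium calls. None was called in the opposite direction by limma, and the BC57 change went no lower than -0.36 among the 549 higher and no higher than 0.58 among the 937 lower probe sets. The difference of the change between the tissues was called at 325 probe sets (limma, 1.53%), 139 (0.655%) with a more positive and 186 (0.876%) with a more negative change in urothelium. When the dimmer 50% of probe sets were left out, 175 of the 10618 then tested were called, so this count is not set beside 325.

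The probe sets of both lists were looked up in the tissue difference of frozen RNA. In FF 2 ng arrays, which the test did not use, 15.0% of all probe sets differed between the tissues. There, 117 of the 186 with a more negative change in urothelium (62.9%) were called higher in urothelium than in BC57, against 7.34% of all probe sets, and 21 were called lower. Their median level was 7.40 in urothelium and 4.97 in BC57 at FF 100 ng, and in FFPE 50 ng arrays it was 6.43 and 5.21. Of the 139 with a more positive change, 60 (43.2%) were called lower in urothelium, against 7.63% of all, and 12 higher. Their median level was 4.28 in urothelium and 5.84 in BC57 at FF 100 ng, and 5.0 and 5.4 at FFPE 50 ng. Both lists were chosen on the FF 100 ng and FFPE 50 ng arrays, so the levels are a description. The tissue difference in frozen RNA is part of what the test compares, and the FF 2 ng arrays measure it again. The choice thus favoured the shares called at FF 2 ng, and they are a description too. Brightness in the tissue moves with these differences, and its part was not tested.

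The urothelium calls themselves were also set beside the tissue difference. Of the 937 lower probe sets, 224 (23.9%) were called higher in urothelium than in BC57 at FF 2 ng and 145 (15.5%) lower. Of the 549 higher ones, 29 (5.28%) and 23 (4.19%) were called, against 7.34% and 7.63% of all probe sets. The lower probe sets were brighter, with a median level of 7.65 at FF 2 ng against 4.62 for the higher ones, and the part of brightness in this contrast was not tested.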

How the data were processed

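Expression was measured on 32 arrays of mouse RNA, of which the 4 urothelium arrays at FFPE 50 ng and FF 100 ng are described here. The authors deposited log2 expression values that name RMA and affy as tools, per the submitters' processing notes. RMA removes background, quantile-normalizes and combines the probes of a set. The sources used here do not give the array design, versions, build or which arrays were normalized in 1 run. The table holds 21237 probe sets with values from 1.23 to 13.22. Arrays have no read depth, so precision is set by how many there are.

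The deposited log2 values were then fitted with limma 3.58.1 under R 4.3.3 (lmFit and trended eBayes, 2-sided, Benjamini-Hochberg adjustment over all probe sets, no filter). The change in urothelium and its difference from BC57 were fitted on 8 arrays in 4 groups, which share 1 estimate of the spread with 4 residual degrees of freedom. The difference from WT Pico was fitted on 10 urothelium arrays, and the WT Pico changes on the urothelium and BC57 arrays of their input. Samples were grouped by their titles. Same-numbered arrays of the 2 urothelium groups had deviations correlated at 0.139, with 2 pairs only, so the fit had no replicate block. The alternatives were other scalings, a filter on dim probe sets, other fits, the block and leaving out single arrays.

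The comparison, lists and tests were chosen with earlier results of these data known. Probe sets were named by size of change, the 2 largest rises and 2 largest falls among calls whose arrays do not overlap. Gene lists and markers could not be used, as no identifier was paired with a symbol. Figures were drawn with matplotlib 3.10.9.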

Additional observations from a re-analysis of the deposited data

Results flagged for a closer look

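Some changes in urothelium differed from those of BC57 under the same kits and inputs, or from those of urothelium with WT Pico, by limma's test of the difference. Between urothelium and BC57, the change from FF 100 ng to FFPE 50 ng differed at 325 probe sets. At ENSMUSG00000070178 the change was larger in urothelium by 1.48 ± 0.30 on the log2 scale (SE, limma adjusted p = 0.024, 0.0114 to 0.0911 over the alternatives). The FFPE levels of the tissues were close, and the FF levels were 4.82 ± 0.26 in urothelium and 6.21 ± 0.07 in BC57 (SD, n = 2 each). That call was lost without urothelium FF replicate 2 (1.30, adjusted p = 0.0911), BC57 FF replicate 1 (1.43, 0.08), BC57 FF replicate 2 (1.53, 0.0767) or urothelium FFPE replicate 2 (1.30, 0.0593). This probe set was chosen for the size of its urothelium change, which favours a larger change there than in BC57.

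Between the 50 ng against FF 100 ng change and the WT Pico 2 ng change within urothelium, 2024 probe sets differed. All 4 named probe sets were among them. They were chosen for the size of 1 of the 2 changes compared, which favours a large difference, so their differences are a description. The difference was 5.47 ± 0.26 at ENSMUSG00000070178 (SE, limma adjusted p = 1.47e-06), 5.83 ± 0.47 at ENSMUSG00000089929 (adjusted p = 1.85e-05), -7.20 ± 0.25 at ENSMUSG00000076891 (adjusted p = 4.33e-07) and -7.36 ± 0.63 at ENSMUSG00000106387 (adjusted p = 2.55e-05). These 4 calls were kept under each alternative in which they were tested. No group had the 4 arrays that a test for outlying arrays needs.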

How the results depend on the processing

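The urothelium count of 1486 stayed within 1.5 times under the alternatives run, from 1053 after quantile normalization to 1670 after centring, except with adjusted p alone (12708). The calls were less alike than the counts: quantile normalization shared 59.4% of them in the same direction, and 54.5% and 52.3% of the calls for the differences from BC57 and from WT Pico, while centring shared 91.3%, 96.9% and 73.1%. Without single arrays it ran from 1416 to 1647. With the replicate block it was 1489, and the block changed no call of the 4 named probe sets. It was 1487 on the 4 urothelium arrays alone and 1480 on all arrays. The difference from BC57 was called at 263 to 363 probe sets without single arrays, at 175 among probe sets brighter than the median, where fewer were tested, and at 2172 by adjusted p alone. The difference from WT Pico was called at 1913 to 2303 without single arrays, at 2594 with 0.5 ng in place of 2 ng, and at 11077 by adjusted p alone. Median changes by brightness, dimmest class first, were 0.16, 0.19, 0.0479, -0.23 and -0.44 after centring and -0.0195, 0.00033, 0.0432, 0.0115 and -0.0171 after quantile normalization, as these scalings shift or equalize the arrays. Sorting by the FF 2 ng level, added after seeing the data, gave a median of -0.39 in the brightest class as deposited. It moved the other medians by less than the replicate spread, but it also moved the counts of calls by class. Counts for gene lists were not run. Detection calls were not used, so dim levels may be background.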
